A study of Mus musculus with 12 samples.

Results

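The transcriptional response to doxycycline was described in mouse embryonic fibroblasts that had been depleted of CBP and p300. It rests on 6 of the 12 libraries of the study, the 3 libraries of knockout cells given doxycycline (KO Dox) and the 3 libraries of knockout cells given the solvent DMSO (KO DMSO), which were taken by their labels. The other 6 libraries come from wild-type cells (WT) with DMSO or doxycycline and are used here to show where the response of the knockout cells differed. Polyadenylated RNA of cultured fibroblasts was sequenced on a BGISEQ-500 instrument, and the deposited values are read counts for 12637 genes.

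The knockout cells came from immortalised fibroblasts in which both copies of Crebbp and of Ep300 were floxed, that is flanked by sites for the Cre recombinase. These cells stably expressed Cre-ERT2, a Cre that 4-hydroxytamoxifen switches on, and 4-hydroxytamoxifen was used to obtain the knockout cells. By their labels both knockout groups carry the same deletion, but its extent in each is not given. The groups differ by doxycycline at 30 µg/ml for 24 h against DMSO. Cells grew in DMEM with 10% fetal bovine serum. The labels do not say whether the WT cells were also given 4-hydroxytamoxifen, nor that the replicates were separate cultures. All p-values therefore reflect only differences among the deposited libraries, and these may be technical.

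CBP and p300 are related lysine acetyltransferases that bind many transcription factors, among them SMADs, NF-kappa B and CREB-type factors, and help them to switch on genes. Doxycycline, an antibiotic, also inhibits mitochondrial ribosomes, and in mammalian cells stress of this kind is known to switch on the integrated stress response through the factor ATF4. In fibroblasts, TGF-beta binds a receptor pair that phosphorylates SMAD proteins, which raise matrix, contractile and feedback genes, whereas NF-kappa B raises chemokines, cytokines and acute-phase proteins.

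Between 44476039 and 50896963 reads per library were counted in genes in KO DMSO, and between 50295363 and 51553181 in KO Dox. KO DMSO replicate 1 stood apart from the other KO libraries. Averaged over 256 processed pseudogenes, that is gene copies made from RNA, its log2 level lay at -0.618 from the KO mean, against 0.0959 to 0.15 in the other 5 KO libraries. It also lay at -17.6 on the first principal component of the KO libraries, which held 46.0% of their variance, while the other KO DMSO libraries lay at -5.26 and -5.15 and the KO Dox libraries at 8.51 to 10.1. Unmapped reads made up 7.63% of all reads in KO DMSO replicate 1 and 6.65% in KO DMSO replicate 2, against 1.85 to 2.09% in the other 10 libraries. Counts without KO DMSO replicate 1 are given beside the main lists and at the end. Of 14 fibroblast markers 13 were measured, with the collagen gene Col1a2 at 1263 ± 41.7 CPM in KO DMSO (CPM expresses counts relative to library size; mean ± SD, n = 3), but the marker genes Col3a1 and Dcn were at only 1.82 ± 0.185 and 0.155 ± 0.0693 CPM. None of 8 endothelial and none of 8 epithelial markers was in the table, and of 10 macrophage markers 4 were measured. In a culture such as this, fewer cells of a type and less RNA per cell cannot be told apart.

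Both targeted genes had counts in all KO libraries. Crebbp (ENSMUSG00000022521 in the build GRCm38.p6, chromosome 16, positions 4081328 to 4213997) had 60.4, 58.8 and 60.4 CPM in the KO DMSO libraries and 53.7, 56.3 and 57.0 CPM in the KO Dox libraries. Ep300 (ENSMUSG00000055024, chromosome 15, positions 81585351 to 81652077) had 128, 120.0 and 123 CPM in KO DMSO and 111, 113 and 115 CPM in KO Dox. In WT DMSO, Crebbp and Ep300 were at 66.8 ± 1.01 and 197 ± 4.48 CPM (SD, n = 3). Whole-gene counts include exons outside the floxed parts, so the deletion itself is not checked by them. Both genes were slightly lower with doxycycline without overlap of the groups, by log2 fold changes of -0.11 ± 0.0294 (SE, n = 3 and 3; edgeR adjusted p = 0.011) and -0.13 ± 0.0337 (adjusted p = 0.0089). Neither passed without KO DMSO replicate 1 or without KO Dox replicate 1, and Crebbp did not pass without KO DMSO replicate 3. Without KO DMSO replicate 1 the values were -0.09 and -0.09 (edgeR adjusted p = 0.062 and 0.062).

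Doxycycline changed many genes in the knockout cells, and it changed nearly all of them by little. Calls were made at an adjusted p under 0.05 by the quasi-likelihood test of edgeR, adjusted after Benjamini and Hochberg over all genes. By this rule 2740 of 12637 genes changed (21.7%), of which 1462 rose (11.6%) and 1278 fell (10.1%). The shares of 11.6% and 10.1% are the background for every count of list members raised or lowered in KO below. Without TMM scaling 1271 rose and 1514 fell, so the balance between directions rests on the scaling. The median size of the called changes was 0.14 on the log2 scale, and 87.9% of them were under 1.25-fold. At least 2-fold changes were called in 7 genes upward (0.0554%) and in 23 downward (0.182%). The 3 KO Dox libraries lay wholly above the 3 KO DMSO libraries in 2416 genes (19.1%) and wholly below them in 2427 (19.2%). The number that fell was 831 without KO DMSO replicate 1, 766 without KO Dox replicate 1 and 836 without KO Dox replicate 2, and 1470, 1130 and 1240 rose in these fits.

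**Figure D1:**
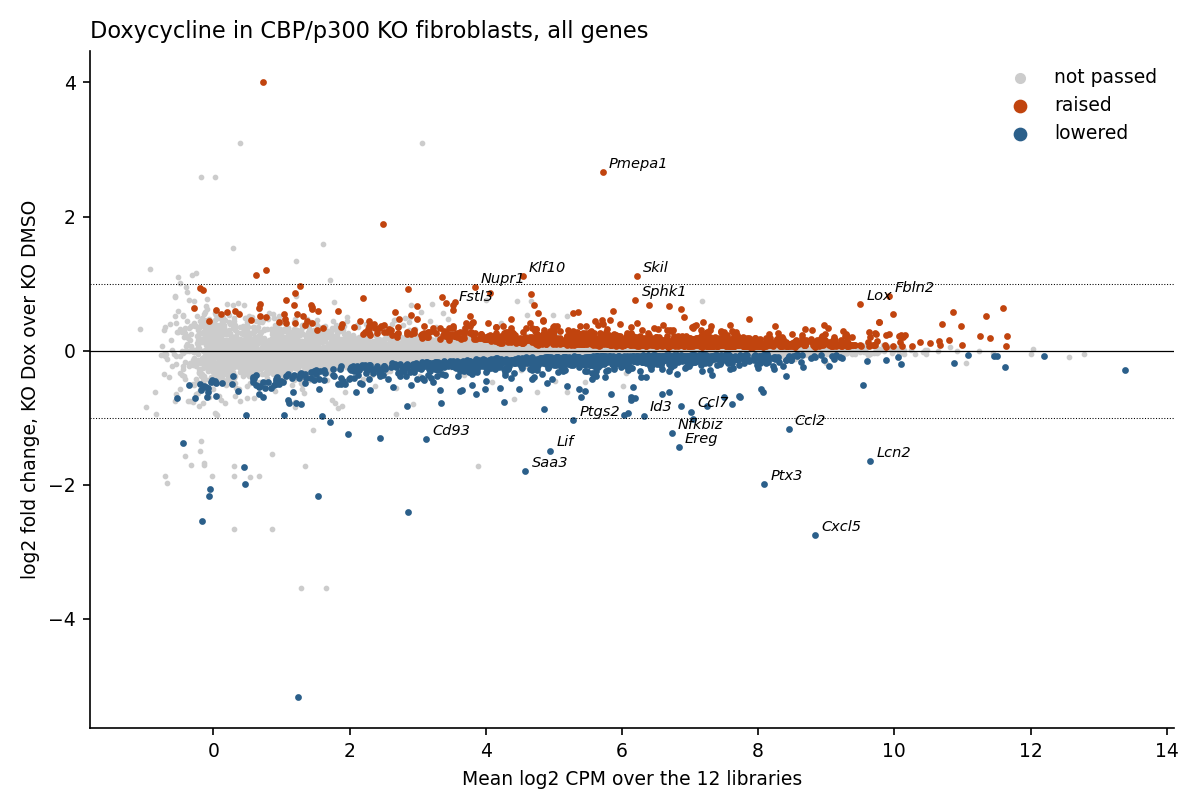
Each point is 1 of 12637 genes, with the mean log2 CPM over the 12 libraries on the horizontal axis and the log2 fold change of KO Dox over KO DMSO on the vertical axis. Orange-red points rose and blue points fell at an adjusted p under 0.05, dotted lines mark 2-fold, and the largest labelled changes are Pmepa1 upward (2.66) and Cxcl5 downward (-2.75).

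Pmepa1 and Skil, feedback inhibitors of TGF-beta signalling, had the largest rises among called genes whose log2 CPM averaged 3 or more over the 12 libraries and whose KO groups did not overlap. This level rule is met by some genes through the WT libraries alone, such as Cd93, Xdh, Mcpt8, Tubb3, Ccbe1 and Tmem119, which were low in KO cells. Cxcl5, Nupr1, Id3 and Saa3 were also under this level on average over the KO libraries. For the 15 largest rises and the 15 largest falls chosen this way, separate KO groups were a condition of the choice. That their libraries lie apart therefore adds no support in the descriptions below. Pmepa1, which encodes a membrane protein that holds SMAD2 and SMAD3 away from the receptor (ENSMUSG00000038400, chromosome 2, positions 173224458 to 173276533), had 14.2, 15.5 and 15.3 CPM in KO DMSO and 95.2, 98.1 and 90.8 CPM in KO Dox. Every KO Dox library was far above every KO DMSO library, and the log2 fold change was 2.66 ± 0.0389 (SE, n = 3 and 3; edgeR adjusted p = 3.1e-24). Skil, whose product SnoN represses SMAD target genes (ENSMUSG00000027660, chromosome 3, positions 31095058 to 31122577), had 72.8, 75.4 and 75.4 CPM in KO DMSO and 157, 162 and 167 CPM in KO Dox. The log2 fold change of Skil was 1.12 ± 0.0356 (edgeR adjusted p = 1.5e-15). Klf10, a zinc finger gene known as an early target of TGF-beta (ENSMUSG00000037465, chromosome 15, positions 38291463 to 38300706), had 11.9, 11.8 and 12.2 CPM in KO DMSO and 25.9, 27.3 and 24.6 CPM in KO Dox. Klf10 had a log2 fold change of 1.11 ± 0.0491 (edgeR adjusted p = 1.8e-14).

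Of 19 measured SMADs and feedback genes 9 rose (11.6% of all genes did), 1 fell (10.1%) and 9 did not pass, and the median log2 fold change was 0.09, against -0.00082 over all genes. The 1 that fell was Tgfbrap1, named here after its value was seen, and none fell when KO DMSO replicate 1 or 3 or KO Dox replicate 1 or 2 was left out, whereas 2 fell without KO DMSO replicate 2. Among the inhibitors, Ldlrad4, which like Pmepa1 binds SMAD2 and SMAD3, went from 7.79 ± 0.773 to 13.6 ± 0.356 CPM (SD, n = 3 each; 0.80 ± 0.0627 on the log2 scale). Smad7, the inhibitory SMAD that blocks the receptor, had 34.4, 32.3 and 33.1 CPM in KO DMSO and 47.7, 51.1 and 48.7 CPM in KO Dox, a log2 fold change of 0.56 ± 0.0337. Ski, a relative of Skil, rose by only 0.12. Of the SMADs that carry the signal, Smad9, of the BMP branch, rose from 7.54 ± 0.448 to 12.4 ± 1.03 CPM (0.72 ± 0.0638; edgeR adjusted p = 1.1e-08), while Smad4, the partner of all of them, was at -0.00255 and Smad5 at -0.0134.

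Among the ligands, receptors and traps of the pathway, the largest called change was that of Fstl3. Of 6 ligands 2 rose, of 7 receptors 2 rose and 2 fell, and of 10 latency proteins and ligand traps 5 rose and 2 fell. Tgfb1, the main TGF-beta ligand, had 117, 116 and 113 CPM in KO DMSO and 148, 149 and 141 CPM in KO Dox. These groups did not overlap, and Tgfb1 rose by 0.34 ± 0.0263 on the log2 scale (edgeR adjusted p = 1.1e-09), whereas Tgfb3 was at 0.02 ± 0.0383 (adjusted p = 0.71). The receptor genes Tgfbr1 and Tgfbr2 were at -0.01 and -0.01 and their groups overlapped. Acvr1, a type I receptor of the BMP and activin group, rose by 0.35 ± 0.0283. Among the traps, Fstl3, which binds activin, rose by 0.67 ± 0.0613, and the follistatin-like gene Fstl1 fell by 0.20. Ltbp1 and Ltbp3, which tether latent TGF-beta to the matrix, rose by 0.17 and 0.12.

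Of 28 targets of TGF-beta and of the growth regulator YAP, 12 rose, 6 fell and 10 did not pass, with a median of 0.08. Bhlhe40, a transcriptional repressor (chromosome 6, positions 108660629 to 108666925), had 90.0, 89.0 and 90.0 CPM in KO DMSO and 145, 144 and 143 CPM in KO Dox. All 3 KO Dox libraries were well above the KO DMSO libraries, and the rise was 0.69 ± 0.0228 (edgeR adjusted p = 6.1e-17). Hbegf, an EGF-type growth factor, rose by 0.48 ± 0.0226. Ankrd1, a target of YAP, rose by only 0.20, and Cyr61, another YAP target, was at -0.04 ± 0.0245 (edgeR adjusted p = 0.3). F3, the gene of tissue factor, fell by 0.40 and Junb by 0.26. In the BMP branch 4 of 14 genes rose and 2 fell, or 1 without KO DMSO replicate 2 or without KO Dox replicate 3. Id3, an inhibitor of basic helix-loop-helix factors that BMP is known to induce, fell from 6.51 ± 0.533 to 3.34 ± 0.207 CPM (-0.97 ± 0.0783; edgeR adjusted p = 2.1e-09), while Id1 was at -0.22 ± 0.0980 and did not pass.

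**Figure D2:**
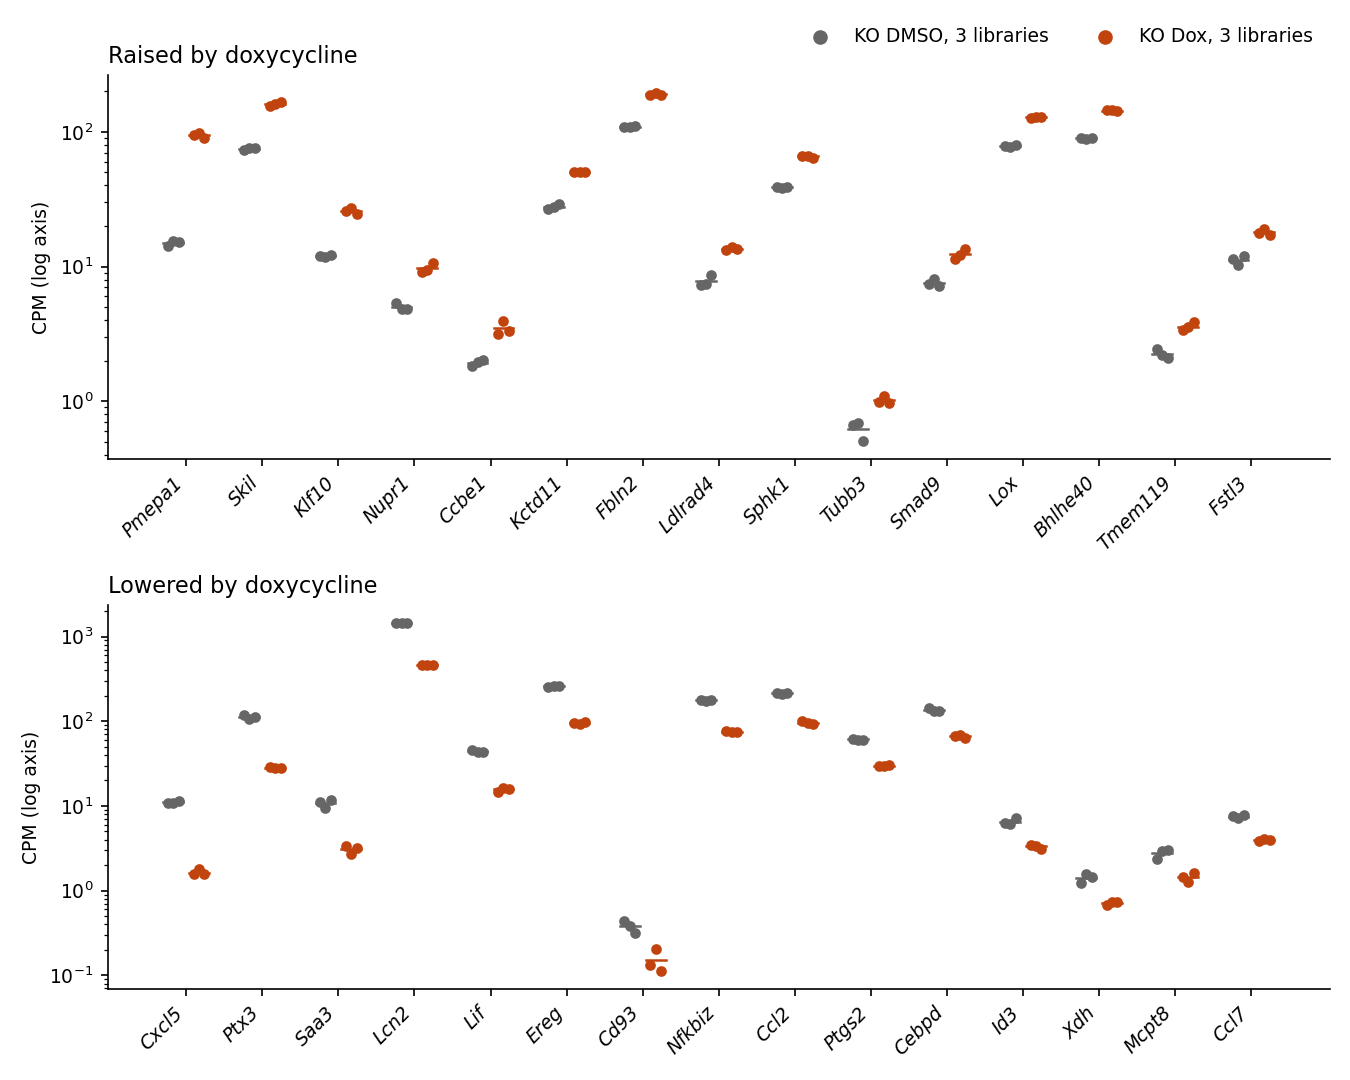
Each point is the CPM of 1 library, on a log axis, for the 15 genes with the largest rise (top) and the 15 with the largest fall (bottom) among the genes chosen for level and for KO groups that do not overlap, with KO DMSO in grey and KO Dox in orange-red and short lines at the means. Pmepa1 (14.2 to 15.5 against 90.8 to 98.1 CPM) and Cxcl5 (10.8 to 11.3 against 1.56 to 1.78 CPM) show the widest gaps.

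Contractile genes rose as a broad group. Of 31 measured members 20 rose, 1 fell and 10 did not pass, with a median of 0.11, and the fall, in Lmod1 (named after its value was seen), did not pass when any 1 KO library was left out. Acta2, the smooth muscle actin that marks contractile fibroblasts (ENSMUSG00000035783, chromosome 19, positions 34241090 to 34255590), had 28.1, 28.5 and 27.8 CPM in KO DMSO and 43.1, 44.3 and 42.3 CPM in KO Dox. The groups were clearly apart, at 0.62 ± 0.0432 on the log2 scale (edgeR adjusted p = 1.1e-09). The cytoplasmic actin genes Actg1 and Actb rose by 0.43 and 0.22, although both have near-identical processed copies in the genome, so their counts are uncertain. Pdlim7 and Cnn2, which bind actin filaments, rose by 0.30 and 0.24. Actn1 and Cald1, which crosslink or cover the filaments, were at 0.01 and -0.01 and did not pass.

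Collagens and the enzymes that process them also rose. Of 19 collagen chains 10 rose and none fell, with a median of 0.18, although 1 fell without KO Dox replicate 3. Col1a1, a chain of type I collagen (ENSMUSG00000001506, chromosome 11, positions 94936224 to 94953042), had 239, 228 and 228 CPM in KO DMSO and 339, 343 and 336 CPM in KO Dox. The libraries of each group lay close together and far from the other group, at 0.55 ± 0.0216 (edgeR adjusted p = 1.6e-15). Its partner chain gene Col1a2 rose by 0.37 ± 0.0230 and Col16a1 by 0.38 ± 0.0261, whereas the basement membrane chain gene Col4a5 was at 0.04 and Col8a1 at -0.08. Of 24 collagen-modifying enzymes 18 rose and 1 fell, with a median of 0.13. Lox, which crosslinks collagen and elastin, had 79.2, 77.8 and 80.3 CPM in KO DMSO and 128, 128 and 129 CPM in KO Dox. No library of 1 group came near the other, and the rise was 0.70 ± 0.0230 (edgeR adjusted p = 5.2e-17). Its relative Loxl4 fell by 0.35. P4ha1, a collagen prolyl hydroxylase, Pcolce, an enhancer of procollagen cleavage, and Serpinh1, the collagen chaperone HSP47, rose by 0.29, 0.25 and 0.21.

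Among matrix glycoproteins and proteoglycans 22 of 48 rose and 6 fell, with a median of 0.13. The 6 falls were 3 without KO DMSO replicate 1, without KO Dox replicate 1 or without KO Dox replicate 2. Adhesive proteins rose most often, 13 of 21, against 6 of 12 elastic fibre proteins and 3 of 15 proteoglycans, and these shares were not compared by a test. Fbln2, an elastic fibre protein gene, rose from 109 ± 1.12 to 191 ± 4.68 CPM (0.81 ± 0.0225; edgeR adjusted p = 1.8e-18). Postn, the periostin gene, and Spp1, the osteopontin gene, rose by 0.67 ± 0.0483 and 0.52 ± 0.0231. Sparc and the small proteoglycan gene Bgn rose by 0.26 and 0.39. Sparcl1 is counted among the rises with 0 counts in each KO DMSO library and 2 counts in each KO Dox library, which is under the floor of 3 counts, so no fold is given. The cell-surface proteoglycan gene Sdc4 went the other way, from 1139 ± 18.7 to 802 ± 6.17 CPM (-0.51 ± 0.0197; edgeR adjusted p = 1.4e-15). Fn1, the fibronectin gene, fell by 0.08, a call lost without KO DMSO replicate 1 (edgeR adjusted p = 0.14). Of 33 matrix proteases and inhibitors 9 rose and 5 fell. Adam12, a membrane protease gene, rose by 1.88 ± 0.273 from only 0.205 ± 0.0272 CPM. Mmp3, a stromelysin gene named after its value was seen, fell (edgeR adjusted p = 0.020) from 0.0591, 0.705 and 0.205 CPM to at most 0.0187 CPM, which is under the floor of 3 counts, so no fold is given. The gelatinase gene Mmp2 rose by 0.29, the aggrecanase genes Adamts5 and Adamts4 fell by 0.71 and 0.30, and the inhibitor gene Timp1 fell by 0.16.

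Most genes of the NF-kappa B pathway fell. Of 33 measured members 20 fell, 2 rose and 11 did not pass, with a median of -0.12, and 15 fell without KO DMSO replicate 1. All 5 subunit genes fell, of which Rel fell by 0.34, Relb by 0.27 and Nfkb1 by 0.19. Of 10 inhibitors 8 fell, and of 18 kinases and adaptors 7 fell and 2 rose, or 1 rose without KO DMSO replicate 3. Nfkbia, which encodes the inhibitor that holds NF-kappa B in the cytoplasm and is itself a target of it (ENSMUSG00000021025, chromosome 12, positions 55489410 to 55492647), had 250.1, 247 and 250.2 CPM in KO DMSO and 145, 141 and 136 CPM in KO Dox. The KO Dox libraries were all far lower, at -0.82 ± 0.0253 (edgeR adjusted p = 1.4e-17). Nfkbiz, a nuclear cofactor of NF-kappa B needed for genes such as Lcn2 and Il6, had 178, 173 and 179 CPM in KO DMSO and 76.4, 75.6 and 74.3 CPM in KO Dox. The groups were far apart, at -1.23 ± 0.0269 (edgeR adjusted p = 1.0e-20). Tnfaip3, the gene of the deubiquitinase A20, fell by 0.59. Otud7b, another deubiquitinase, and Chuk, a kinase of the pathway, were at -0.06 and -0.01 and did not pass.

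Of 12 chemokine ligands 7 fell and 1 rose, and 2 chemokine genes rose without KO Dox replicate 2. Cxcl5, which attracts neutrophils (ENSMUSG00000029371, chromosome 5, positions 90759360 to 90761624), had 10.9, 10.8 and 11.3 CPM in KO DMSO and 1.56, 1.78 and 1.56 CPM in KO Dox. Every KO Dox library was under every KO DMSO library by a wide margin, and the log2 fold change was -2.75 ± 0.0643 (edgeR adjusted p = 3.7e-20). Ccl2, which attracts monocytes (ENSMUSG00000035385, chromosome 11, positions 82035571 to 82037453), had 216, 211 and 218 CPM in KO DMSO and 99.6, 94.3 and 92.6 CPM in KO Dox. The log2 fold change of Ccl2 was -1.17 ± 0.0247 (edgeR adjusted p = 5.4e-21). Its neighbour Ccl7 and the interferon-induced Cxcl10 fell by 0.91 and 0.77, and Cxcl12, a homeostatic chemokine of fibroblasts, fell by 0.19. Cxcl2 fell by 2.55 from only 0.851 ± 0.150 CPM. Cx3cl1, a membrane-bound chemokine, was the 1 that rose, by 0.20 ± 0.0358 (edgeR adjusted p = 2.2e-04).

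Of 51 cytokine, receptor and relay genes 12 fell and 3 rose, and the largest falls were those of Il6 and Lif. Lif, a cytokine of the IL-6 family (ENSMUSG00000034394, chromosome 11, positions 4257557 to 4272514), had 45.4, 42.8 and 43.9 CPM in KO DMSO and 14.7, 16.2 and 16.0 CPM in KO Dox. Lif had a log2 fold change of -1.49 ± 0.0420 (edgeR adjusted p = 2.0e-18). Il6 itself was low, with 1.40, 1.39 and 1.34 CPM in KO DMSO, and fell to 0.323, 0.169 and 0.279 CPM in KO Dox (-2.41 ± 0.184; edgeR adjusted p = 7.9e-10). Il11, a further member, rose by 0.42 ± 0.0491. The receptor gene Osmr fell by 0.24, while Il6st, the shared receptor chain, was at -0.07 and did not pass. Socs3, a feedback inhibitor of this signalling, fell by 0.82 and the signal carrier Stat3 by 0.09.

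Of 10 acute-phase genes 4 fell and none rose, and of 9 complement genes 2 fell and 1 rose. Lcn2, an iron-scavenging protein gene (ENSMUSG00000026822, chromosome 2, positions 32384633 to 32388252), had 1455, 1427 and 1429.7 CPM in KO DMSO and 463, 462 and 455 CPM in KO Dox. The KO Dox libraries agreed closely among themselves and lay far under KO DMSO, at -1.64 ± 0.0228 (edgeR adjusted p = 1.9e-24). Ptx3, a secreted pattern recognition protein gene (ENSMUSG00000027832, chromosome 3, positions 66219910 to 66225805), had 118, 107 and 113 CPM in KO DMSO and 28.6, 28.3 and 28.4 CPM in KO Dox. The spread within KO DMSO was small beside the gap between the groups, at -1.99 ± 0.0325 (edgeR adjusted p = 2.6e-23). Saa3, which has close relatives in its gene cluster and is uncertain for that reason, fell by 1.80 from 10.7 ± 1.19 CPM. The ferroxidase gene Cp and complement C3 fell by 0.80 and 0.58, whereas the complement protease gene C1s1 rose by 0.34.

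Of 4 adhesion genes 3 fell and none rose, and of 11 genes of prostaglandin synthesis and signalling 3 fell and 3 rose. Icam1 and Vcam1, which hold leukocytes, fell by 0.83 and 0.62. Ptgs2, the inducible prostaglandin synthase COX-2 (ENSMUSG00000032487, chromosome 1, positions 150100031 to 150108227), had 62.4, 60.6 and 60.5 CPM in KO DMSO and 29.7, 29.6 and 30.1 CPM in KO Dox. Ptgs2 changed by -1.04 ± 0.0443 on the log2 scale (edgeR adjusted p = 2.2e-13), whereas the constitutive Ptgs1 rose by 0.10. Nos2, the inducible nitric oxide synthase gene, fell by 2.17 from 0.546 ± 0.0884 CPM. Cebpd, a transcription factor gene of the acute-phase response, had 142, 133 and 131 CPM in KO DMSO and 67.6, 69.0 and 64.2 CPM in KO Dox. Cebpd fell by 1.02 (edgeR adjusted p = 1.5e-14), while its relative Cebpb, at -0.12 ± 0.0703, missed the threshold (adjusted p = 0.25). Of 10 macrophage markers the 4 measured summed to 38.1 to 40.5 CPM in KO DMSO and 34.4 to 37.0 CPM in KO Dox, and their part in the falls of inflammatory genes was not tested. Of the defining markers Cd68 fell by 0.17 and Ptprc and Adgre1 were not in the table, and Csf1r, another marker, fell from 0.980 ± 0.146 to 0.664 ± 0.149 CPM. Both falls were lost without KO DMSO replicate 2 or without KO Dox replicate 2, and 1 was lost without KO DMSO replicate 1 or KO Dox replicate 3.

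The promoters of the most strongly changed genes are shown so that the bases before their start sites can be read beside their values. RefSeq promoter windows of GRCm38.p6, taken as the 250 bases before each start site, were matched to 9407 of 12636 measured symbols and gave 12055 windows. In both strands a C/EBP motif (TTGCNNAA, N being any base) was found in 7.32% of all windows, an AP-1 motif (TGANTCA) in 4.26%, a SMAD element (CAGACA) in 13.1% and the NF-kappa B motif in 4.53%. Of the 15 genes with the largest falls 7 were matched, with 7 windows, and 4 of them (57.1%) held the C/EBP motif, 1 (14.3%) the AP-1 motif and none the other motifs. The 4 windows with a C/EBP motif are printed 5′ to 3′ on the strand of the gene with the match in capitals, for Ptx3 (chr3:66219637-66219886, plus strand), Saa3 (chr7:46715677-46715926, minus strand), Lcn2 (chr2:32387740-32387989, minus strand) and Ptgs2 (chr1:150099781-150100030, plus strand). Start sites are those of RefSeq, a match on the other strand appears as its complement, and motifs were searched separately with no overlap between them removed. The matches start 57, 99, 216 and 69 bases before the start site.
Ptx3: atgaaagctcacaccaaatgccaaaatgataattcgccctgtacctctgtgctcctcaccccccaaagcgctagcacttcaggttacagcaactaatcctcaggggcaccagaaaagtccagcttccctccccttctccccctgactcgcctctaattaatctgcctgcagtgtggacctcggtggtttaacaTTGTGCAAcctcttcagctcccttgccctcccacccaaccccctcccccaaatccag
Saa3: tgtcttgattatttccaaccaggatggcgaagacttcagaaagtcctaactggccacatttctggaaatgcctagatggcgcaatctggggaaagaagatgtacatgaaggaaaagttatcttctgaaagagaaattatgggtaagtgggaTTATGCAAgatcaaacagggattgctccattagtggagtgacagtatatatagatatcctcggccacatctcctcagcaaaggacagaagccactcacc
Lcn2: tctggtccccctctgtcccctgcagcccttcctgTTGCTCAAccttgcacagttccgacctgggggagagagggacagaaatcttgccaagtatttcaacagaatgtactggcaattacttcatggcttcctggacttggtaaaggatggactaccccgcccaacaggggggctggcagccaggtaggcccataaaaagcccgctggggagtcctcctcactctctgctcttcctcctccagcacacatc
Ptgs2: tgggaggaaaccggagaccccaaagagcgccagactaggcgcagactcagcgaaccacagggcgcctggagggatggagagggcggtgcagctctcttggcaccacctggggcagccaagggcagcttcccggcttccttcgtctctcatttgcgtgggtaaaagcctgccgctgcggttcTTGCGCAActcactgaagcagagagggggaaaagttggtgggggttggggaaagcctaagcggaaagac
A match describes the letters in this window alone and shows neither a bound site nor a cause. Of the 15 genes with the largest rises 7 were matched, with 11 windows, of which 3 (27.3%) held the AP-1 motif in 2 genes. One is a window of Kctd11, and the other 2 are overlapping windows of Sphk1 that hold the same site. Sphk1 has 5 of the 11 windows. Of the 11 windows 2 (18.2%) held the SMAD element and none the C/EBP or NF-kappa B motif. The SMAD element was found in the windows of Nupr1 (chr7:126625471-126625720, minus strand) and of Fstl3 (chr10:79777024-79777273, plus strand), with matches again in capitals.
Nupr1: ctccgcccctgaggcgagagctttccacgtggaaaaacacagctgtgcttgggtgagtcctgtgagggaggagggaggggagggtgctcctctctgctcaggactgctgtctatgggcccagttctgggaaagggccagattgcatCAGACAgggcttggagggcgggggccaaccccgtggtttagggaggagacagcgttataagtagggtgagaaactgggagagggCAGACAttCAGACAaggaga
Fstl3: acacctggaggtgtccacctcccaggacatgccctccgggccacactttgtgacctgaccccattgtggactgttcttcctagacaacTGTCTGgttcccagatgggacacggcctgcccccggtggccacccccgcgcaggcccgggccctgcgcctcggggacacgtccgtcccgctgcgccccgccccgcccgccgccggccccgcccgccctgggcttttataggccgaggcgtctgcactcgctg
Nupr1 held 3 matches, which begin 104, 20 and 12 bases before its start site, and Fstl3 held 1 at 162 bases.

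Interferon-stimulated genes fell without any rise, 11 of 34 with a median of -0.17, or 8 without KO DMSO replicate 1, 7 without KO DMSO replicate 3 and 6 without KO Dox replicate 3. Irf1, a transcription factor that interferon and NF-kappa B induce, had 52.9, 54.1 and 53.3 CPM in KO DMSO and 43.1, 42.1 and 40.0 CPM in KO Dox. The KO Dox libraries were all lower, at -0.36 ± 0.0300 (edgeR adjusted p = 4.4e-09), and its relatives Irf2 and Irf3 were at -0.03 and -0.08 without passing. The GTPase gene Gbp2 fell by 0.52, the RNA sensor gene Ifih1 by 0.33 and the antiviral gene Ifitm3 by 0.14.

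Of 31 AP-1 and immediate-early genes 17 fell, 4 rose and 10 did not pass, and without KO DMSO replicate 1 the rises were 7. Of 22 genes of the EGR, NR4A, IER and related groups 14 fell, and of 9 AP-1 subunits and partners 3 fell, and these shares were not compared by a test. Ier3, an immediate-early survival gene (ENSMUSG00000003541, chromosome 17, positions 35821684 to 35822923), had 464, 448 and 455 CPM in KO DMSO and 283, 283 and 277 CPM in KO Dox. All KO Dox libraries were lower, at -0.70 ± 0.0241 (edgeR adjusted p = 1.3e-16). The nuclear receptor gene Nr4a1 and the stress gene Gadd45b fell by 0.69 and 0.65, and Zfp36, whose product degrades cytokine mRNAs, fell by 0.42. The AP-1 subunit gene Fosl1 and Myc were at -0.02 and 0.06 and did not pass. Of 12 KLF factors 3 rose and 1 fell. Besides Klf10, Klf2 rose by 0.15 and Klf5 fell by 0.27, while Klf4, which shares their DNA-binding fold, was at -0.00271.

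Growth factor genes moved both ways, with 10 of 35 raised and 4 lowered. Ereg, an EGF-type growth factor (ENSMUSG00000029377, chromosome 5, positions 91074622 to 91093646), had 255, 258 and 263 CPM in KO DMSO and 95.3, 93.3 and 96.7 CPM in KO Dox. The groups lay far apart, at -1.44 ± 0.0260 (edgeR adjusted p = 1.9e-22), in the opposite direction to Hbegf, which binds the same receptor family. Pdgfa and Vegfa rose by 0.26 and 0.30, and Fgf7, the keratinocyte growth factor gene, fell by 0.28. Of 22 feedback genes of the ERK kinase pathway 4 rose and 4 fell. Dusp6, an ERK phosphatase, and Spry1, a Sprouty inhibitor, rose by 0.30 and 0.37, whereas Dusp1, Phlda1 and the EGF receptor inhibitor gene Errfi1 fell by 0.25, 0.57 and 0.36. The ERK-induced factors Etv4 and Etv5 were at 0.01 and 0.04 and did not pass.

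The integrated stress response was raised by a small amount in the knockout cells. Of 45 genes 23 rose, 4 fell and 18 did not pass, with a median of 0.11 and 0 genes past 2-fold. In WT cells 35 of the same genes rose (23.9% of all genes did) and 4 fell (29.2%). The doxycycline effect itself differed between KO and WT, by the interaction term of the same fit, in 37 of the 45, with a lower value in KO for 35 (14.3% of all genes) and a higher one for 2 (18.2%). Nupr1, a stress protein gene that ATF4 induces (ENSMUSG00000030717, chromosome 7, positions 126623249 to 126630861), had 5.35, 4.80 and 4.85 CPM in KO DMSO and 9.08, 9.38 and 10.6 CPM in KO Dox. Nupr1 rose by 0.95 ± 0.0768 in KO (edgeR adjusted p = 2.5e-09), and the effect in WT was 1.51 ± 0.0568. Trib3, a pseudokinase gene (ENSMUSG00000032715, chromosome 2, positions 152337422 to 152344032), had 7.05, 7.30 and 6.36 CPM in KO DMSO and 9.41, 8.88 and 8.38 CPM in KO Dox. It rose by 0.37 ± 0.0675 in KO against 3.01 ± 0.0436 in WT, and the difference was -2.64 ± 0.0842 (edgeR adjusted p = 4.9e-17). The transporter genes for neutral amino acids Slc1a4 and Slc7a5 rose by 0.39 and 0.31, and the cystine transporter gene Slc7a11 by 0.42. Ppp1r15a, which ends the response by restoring translation, fell by 0.29 in KO and was at 0.28 in WT. The transporter chain Slc3a2 and the ATF4 partner Cebpg were at 0.03 and 0.05 and did not pass.

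Serine and one-carbon genes rose in 12 of 23 cases and fell in 1, with a median of 0.09, and the fall was lost without KO DMSO replicate 1 or without any 1 KO Dox library. Aldh1l2, a mitochondrial folate enzyme (ENSMUSG00000020256, chromosome 10, positions 83487450 to 83534140), had 10.6, 10.6 and 10.2 CPM in KO DMSO and 15.8, 15.8 and 15.8 CPM in KO Dox. KO Dox libraries were all higher, at 0.60 ± 0.0468 (edgeR adjusted p = 1.2e-09). Pycr1, which makes proline, rose by 0.58, Phgdh, which opens serine synthesis, by 0.36, and the mitochondrial folate enzyme genes Mthfd2 and Shmt2 by 0.28 and 0.22. Of 20 cytosolic aminoacyl-tRNA synthetases 13 rose and none fell, with a median of 0.08 and the largest rises, of 0.18 each, in Tars and Cars, which charge the tRNAs of threonine and cysteine. Of 17 mitochondrial synthetases none passed in either direction by edgeR, and their values ran from -0.11 to 0.11.

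Mitochondrial genes moved little. Of 27 mitochondrial chaperones and proteases 4 rose and 1 fell, and without KO DMSO replicate 1, KO Dox replicate 1 or KO Dox replicate 2 the rises were 2. The fall, in Dnaja3, was lost when any 1 KO library was left out. In WT cells 16 of these 27 genes rose (23.9% of all genes did) and 2 fell (29.2%). The interaction term was lower in KO for 10 (14.3% of all genes) and higher for 1 (18.2%). Lonp1, a protease of the mitochondrial matrix, had 242, 238 and 237 CPM in KO DMSO and 236, 231 and 230.2 CPM in KO Dox. The KO Dox libraries lay slightly under the KO DMSO libraries without passing, at -0.04 ± 0.0203 (edgeR adjusted p = 0.18), against 0.66 ± 0.0204 in WT. Hspa9, a chaperone of the same compartment, was at 0.02 ± 0.0220 in KO, with overlapping groups, and at 0.53 ± 0.0218 in WT. Hspd1 and Hspe1, which form the HSP60 chaperonin, rose by 0.11 and 0.12. Of 29 factors of mitochondrial gene expression 1 rose and none fell, or 0 and 2 rose without KO DMSO replicate 2 and without KO Dox replicate 3. Of 79 mitochondrial ribosomal proteins 7 rose, or 3 without KO Dox replicate 1. Of 77 nuclear-encoded respiratory chain subunits 11 rose and 1 fell, or 7 rose without KO DMSO replicate 1, and the fall was lost when any 1 KO library was left out. The rises among mitochondrial ribosomal proteins and among these subunits were near the share of 11.6% over all genes.

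Mitochondrially encoded transcripts changed unequally. Of 12 genes 3 rose, 1 fell and 8 did not pass. Without KO DMSO replicate 1 there were 4 rises and 3 falls. The mitochondrial genome has near-identical nuclear copies, so these counts are uncertain. mt-Co1, which encodes a subunit of complex IV, had 11870.0, 12619 and 12622 CPM in KO DMSO and 10265, 9964 and 10185 CPM in KO Dox. All KO Dox libraries were lower, at -0.29 ± 0.0236 (edgeR adjusted p = 2.7e-09). mt-Nd2, a subunit of complex I, had 2556, 2767 and 2816 CPM in KO DMSO and 4342, 4034 and 4222 CPM in KO Dox. All KO Dox libraries were higher, at 0.63 ± 0.0368 (edgeR adjusted p = 1.1e-08), with 0.62 in WT and a difference of 0.01 ± 0.0518 between the genotypes. mt-Nd3, another complex I gene, had 0.433, 1.09 and 1.25 CPM in KO DMSO and 2.34, 1.99 and 2.06 CPM in KO Dox. KO DMSO replicate 1 was the lowest library, and the rise, past 2-fold at 1.199 on the log2 scale (edgeR adjusted p = 3.0e-04), was 0.87 without it. mt-Nd4 rose by 0.19. mt-Atp6, a subunit gene of the ATP synthase, was at 0.74 ± 0.374 without passing (edgeR adjusted p = 0.21) and at 0.31 without KO DMSO replicate 1, where it passed (adjusted p = 1.0e-04). The complex I gene mt-Nd5 was at 0.02 and did not pass, and mt-Cytb was at -0.10 ± 0.0374 (edgeR adjusted p = 0.072), or -0.13 without KO DMSO replicate 1 (adjusted p = 0.0073).

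Genes of cholesterol synthesis and uptake rose in KO cells and fell in WT cells. In KO 17 of 29 rose and 1 fell, with a median of 0.13, and the fall, in the sterol-sensing receptor gene Nr1h2 (named after its value was seen), was lost when KO DMSO replicate 1 or 2 or KO Dox replicate 2 or 3 was left out. In WT none rose and 25 fell (29.2% of all genes fell). The interaction term was higher in KO for 27 (18.2% of all genes) and lower for none. Cyp51, a demethylase gene of sterol synthesis (chromosome 5, positions 4081145 to 4104746), had 18.5, 19.1 and 18.2 CPM in KO DMSO and 22.9, 24.2 and 23.0 CPM in KO Dox. KO Dox was higher in every library, at 0.33 ± 0.0436 (edgeR adjusted p = 5.0e-06), against 0.03 ± 0.0398 in WT. Among the other enzymes, Fdft1 and Nsdhl rose by 0.27 and 0.26, and Acat2, which starts the pathway, was at 0.01. Of 17 fatty acid synthesis genes 7 rose and none fell. The desaturase gene Scd2 rose by 0.43 ± 0.0211, while its relative Scd1, the synthase gene Fasn and the citrate lyase gene Acly were at 0.03, -0.02 and 0.03 without passing.

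S phase genes rose more often than all genes did, though most of them did not pass the test. Most genes of mitosis did not pass either. Of 49 S phase genes 17 rose (11.6% of all genes did), 32 did not pass and none fell, with a median of 0.09. Without KO DMSO replicate 1 the rises were 21, and the share was not compared with that of all genes by a test. Among the larger rises were Ccne1, the cyclin E1 gene, at 0.19 and the replication genes Rpa1 and Mcm5 at 0.18 and 0.18. Of 50 genes of G2 and mitosis 9 rose (11.6% of all genes did), 41 did not pass and none fell. The rises were 4 without KO Dox replicate 1 and 13 without KO DMSO replicate 1. In WT 1 rose and 45 fell (29.2% of all genes fell), and the interaction was higher in KO for 44 (18.2% of all genes). Of 18 cytosolic heat shock genes 7 rose and none fell, led by Hspa8 and Hsph1 at 0.16 and 0.16. Of 26 genes of the endoplasmic reticulum stress response 13 rose, with a largest value of 0.20 in Herpud1, and 2 fell, or 0 without KO DMSO replicate 1 or KO Dox replicate 2 and 1 without KO Dox replicate 1. The metallothionein gene Mt1, which binds zinc, had 316, 286 and 289 CPM in KO DMSO and 187, 189 and 182 CPM in KO Dox. The groups did not overlap, and it fell by 0.68 (edgeR adjusted p = 4.7e-11), as did its close relative Mt2 by 0.95 from 1.34 ± 0.178 CPM.

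Other groups held both rises and falls, beside 11.6% of all genes raised and 10.1% lowered. Of 25 p53 targets 7 fell and 1 rose, with Fas, the death receptor gene, at -0.29 ± 0.0716, the p53 inhibitor gene Mdm4 at -0.20 ± 0.0325 and Mdm2, the main p53 inhibitor, at -0.02 without passing. Of 30 antioxidant genes under NRF2 6 rose and 6 fell, and 3 fell without KO DMSO replicate 1 or 3 or KO Dox replicate 3. Heme oxygenase Hmox1 rose by 0.21 ± 0.0236 and the glutathione peroxidase gene Gpx1 fell by 0.13. Tfrc, the transferrin receptor gene that takes up iron, fell by 0.27. Of 35 WNT and Notch genes 8 rose and 1 fell, among them Fzd2, a WNT receptor, at 0.26 and Wisp1, a WNT target, at 0.29. Hes1, a Notch target, rose by 0.48 ± 0.101 from 1.95 ± 0.152 CPM. Of 21 HOX genes, which record the body position a fibroblast came from, 3 rose, near the share over all genes, and 4 fell. Hoxa4 was at 0.40 ± 0.0885 and Hoxb5 at -0.46 ± 0.0675. Of 33 lysine acetyltransferases and deacetylases 4 rose and 4 fell, both near the shares over all genes. None fell without KO DMSO replicate 1 or without KO Dox replicate 1, and 2 fell without KO DMSO replicate 3 or KO Dox replicate 3.

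**Figure D3:**
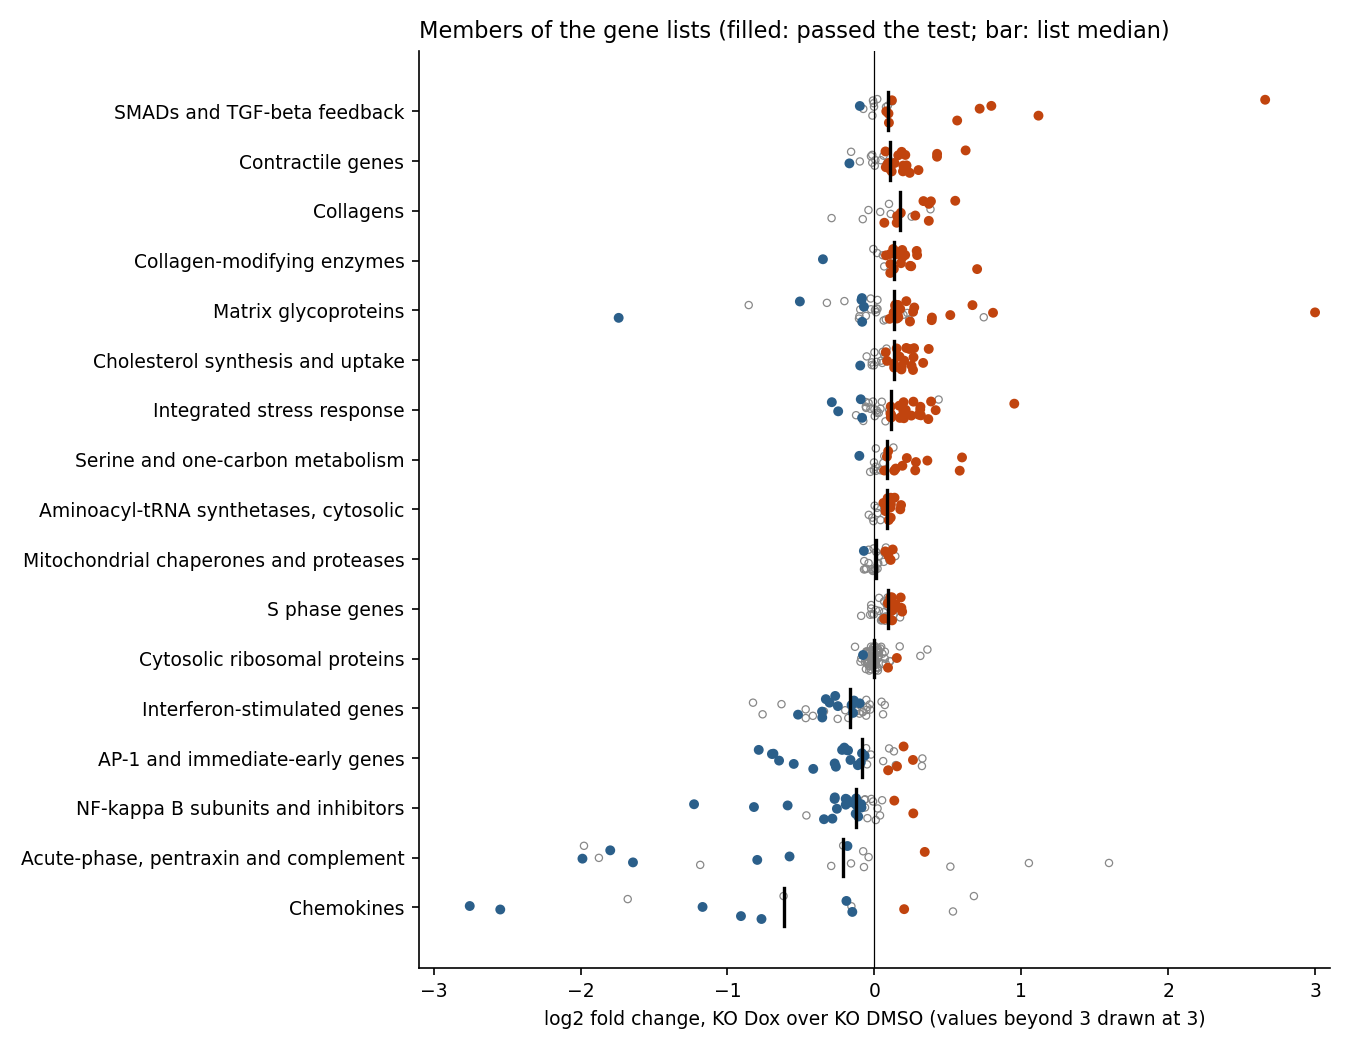
Each point is a member of a gene list, placed by its log2 fold change of KO Dox over KO DMSO, filled where it passed the test (orange-red higher, blue lower) and open where it did not, with a bar at the list median; positions beyond 3 are drawn at 3 and the vertical spread within a list has no meaning. Feedback, contractile, collagen and cholesterol lists lie mostly to the right of 0, with medians of 0.09 to 0.18, and chemokines, at a median of -0.62, lie mostly to the left.

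The response of KO cells was then compared with that of WT cells. In WT 6706 genes changed (53.1%), and the interaction was called for 4107 genes (32.5%). At least 2-fold rises were called in 168 genes in WT (1.33%), and the interaction was at least 2-fold lower in KO for 77 genes (0.609%). Of the 1462 genes raised in KO, 683 were also raised in WT, 304 were lowered there and 475 did not pass. Of the 1278 lowered in KO, 720 were also lowered in WT, 112 were raised and 446 did not pass. All 3 WT DMSO libraries were also low in processed pseudogenes, at -0.345 to -0.392 from the WT mean, against 0.314 to 0.394 in WT Dox, and the part of this in the interaction was not tested.

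Among the 15 most raised genes 11 were also raised in WT, 4 were lowered there, and the effect was larger in KO for 12 (18.2% of all genes). They were chosen for a large rise in KO, which favours a larger effect there than in WT. Pmepa1 was at 34.6 ± 0.359 CPM in WT DMSO and 64.9 ± 2.14 in WT Dox (SD, n = 3 each), and its effect in KO exceeded that in WT by 1.75 ± 0.0542 (edgeR adjusted p = 3.1e-17). For Skil the effects were close, 1.12 in KO and 0.96 in WT, with a difference of 0.15 ± 0.0608 (edgeR adjusted p = 0.059). Smad9 went the opposite way in WT, from 14.5 ± 0.463 to 7.94 ± 0.340 CPM, and the difference was 1.59 ± 0.0895 (edgeR adjusted p = 1.9e-12). Kctd11, an adaptor of ubiquitin ligases, and Sphk1, which makes sphingosine 1-phosphate, rose by 0.85 and 0.76 in KO and were at -0.14 and -0.39 in WT. Tubb3, a tubulin gene of neurons, did likewise at 0.72 and -0.33, but from only 0.619 ± 0.0999 CPM in KO DMSO. Of 31 contractile genes 5 rose (23.9% of all genes did) and 15 fell (29.2%) in WT. The interaction was higher in KO for 22 (18.2% of all genes). Acta2 was at -0.21 ± 0.0320 in WT, a difference of 0.83 ± 0.0538 (edgeR adjusted p = 1.9e-10).

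All but 1 of the 15 most lowered genes were also lowered in WT, and for 13 of them the effect in KO was the lower one (14.3% of all genes). Their choice for a large fall in KO favours a lower effect there than in WT. Cxcl5 was at 1199 ± 23.2 CPM in WT DMSO and 616 ± 0.681 in WT Dox, a far higher level than in KO, and its effect in KO minus that in WT was -1.79 ± 0.0711 (edgeR adjusted p = 2.9e-15). Lcn2 and Ptx3 fell by 0.46 and 0.65 in WT, and the differences were -1.19 ± 0.0317 and -1.33 ± 0.0413. Saa3 was the exception that did not pass in WT, at -0.09 ± 0.0453 (edgeR adjusted p = 0.12). Ereg fell by 0.10 in WT, with a difference of -1.34 ± 0.0405 (edgeR adjusted p = 3.1e-17). Cebpd fell slightly more in WT, by 1.21, with a difference of 0.19 ± 0.0489 (adjusted p = 0.0045). Cd93, Xdh and Mcpt8, which were also among the 15, were low in KO cells, with 0.378 ± 0.0582, 1.41 ± 0.181 and 2.75 ± 0.356 CPM in KO DMSO. Cd93, Xdh and Mcpt8, which were also among the 15, were low in KO cells, with 0.378 ± 0.0582, 1.41 ± 0.181 and 2.75 ± 0.356 CPM in KO DMSO.

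**Figure D4:**
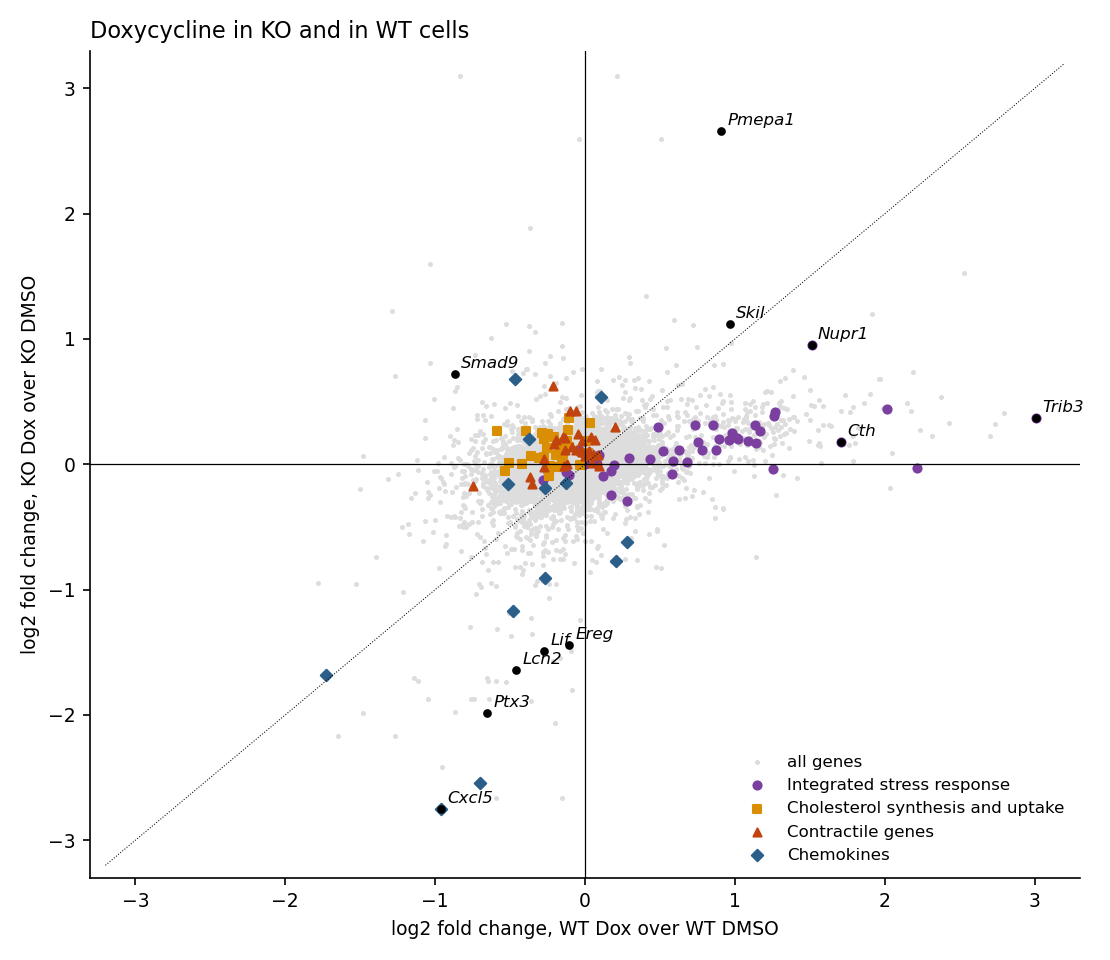
Each point is a gene, with the log2 fold change of doxycycline in WT cells on the horizontal axis and in KO cells on the vertical axis, a dotted line where both are equal, and 4 genes outside the limits of 3.3 not drawn. Integrated stress response genes extend to the right near a KO value of 0 (Trib3 at 3.01 in WT and 0.37 in KO). Cholesterol and contractile genes have medians of -0.21 and -0.06 in WT and of 0.13 and 0.11 in KO. Chemokines reach down to the KO value of -2.75 of Cxcl5.

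KO DMSO replicate 1 was left out to see what rests on it. The 30 genes with the largest changes had been chosen with it for groups that do not overlap, which favours their passing without it, and all 30 passed, with log2 fold changes that moved by at most 0.12, that of Cd93. Of the 440 named genes 12 moved by more than 0.2, of which 5 were pseudogenes with names of the Gm series and 5 were mitochondrially encoded genes. The contractile, collagen and feedback lists had 20, 10 and 9 rises, as with all libraries, while falls in the NF-kappa B list went from 20 to 15 and in the interferon list from 11 to 8, and rises in the S phase list from 17 to 21 and in the mitosis list from 9 to 13. With KO DMSO replicates 1 and 2 both left out, a setting chosen after seeing the data, 733 genes rose and 356 fell. In that setting 14 contractile genes, 8 collagens and 6 feedback genes rose, and falls were called in 13 genes of the NF-kappa B list, in 5 of the cytokine list and in 2 interferon-stimulated genes. S phase genes then rose in 9 cases, genes of the endoplasmic reticulum stress response in 5, heat shock genes in 3 and matrix proteases in 5, and the fall of Cd93 did not pass. By gene type, 6 of 243 antisense genes rose and 24 fell, 8 of 230 long intergenic RNAs rose and 25 fell, and 10 of 256 processed pseudogenes rose and 5 fell, against 11.6% of all genes raised and 10.1% lowered. Without KO DMSO replicate 1 these counts were 5 and 19, 8 and 20, and 2 and 3. The sources used here do not give the use of strand in counting, so reads of an antisense gene and of its partner cannot be told apart.

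**Figure D5:**
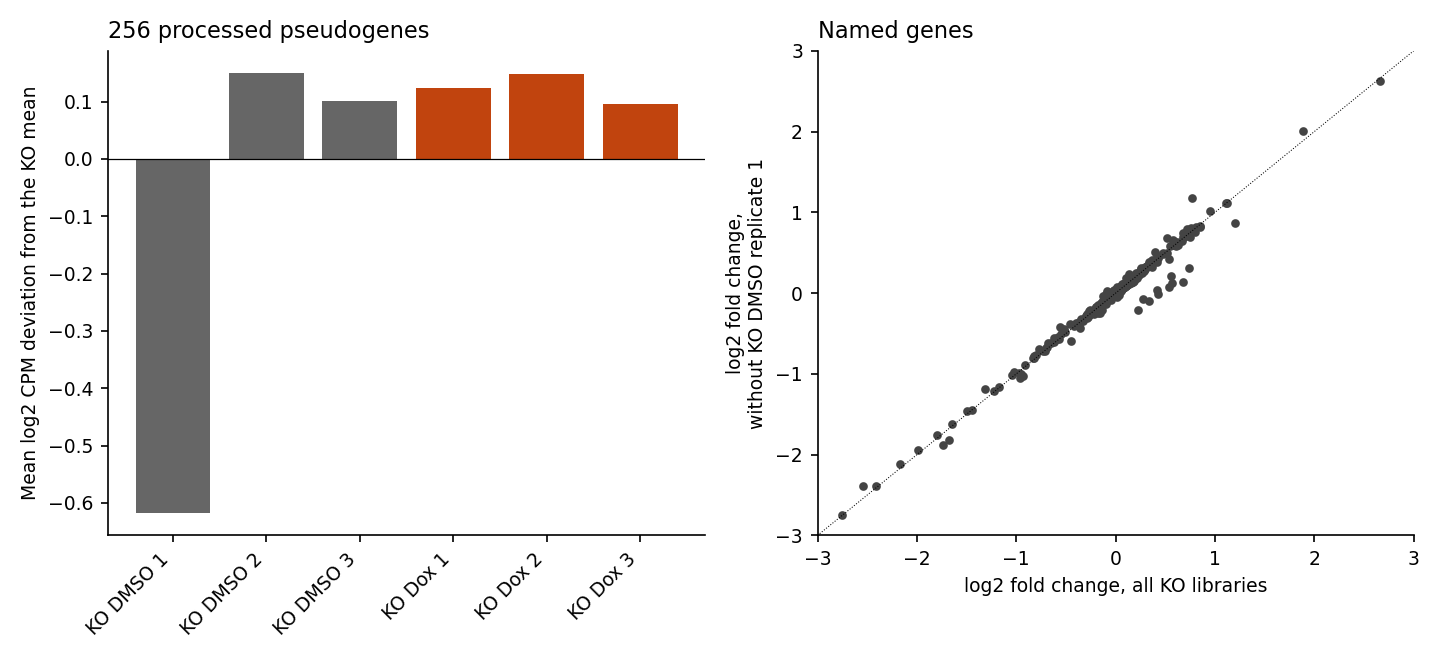
The left panel gives, for each KO library, the mean deviation of log2 CPM from the KO mean over 256 processed pseudogenes (grey DMSO, orange-red doxycycline), and the right panel gives the log2 fold change of each named gene with all KO libraries on the horizontal axis and without KO DMSO replicate 1 on the vertical axis, with a dotted line where both are equal. KO DMSO replicate 1 is at -0.618 and the other 5 libraries are at 0.0959 to 0.15, while most named genes lie near the line.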

How the data were processed

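The deposited values are whole-number read counts for each gene. Labels place the 12 libraries in 4 groups of 3. STAR 2.6.0a, HTSeq 0.10.0 and the build GRCm38.p6 were used, per the submitters' processing notes. The sources used here do not give what each did or whether counting used strand. Gene positions and types come from GENCODE M21. From the counts, edgeR 4.0.16 in R 4.3.3 fitted 4 group means to the 12 libraries with TMM scaling. Its quasi-likelihood F test was applied to doxycycline in KO, doxycycline in WT and their difference, with Benjamini-Hochberg adjustment over 12637 genes and calls at an adjusted p under 0.05. The filter on low counts removed 0 genes. The SE is the log2 fold change divided by the square root of F, and CPM values use TMM-scaled library sizes. The fit was tested on simulated data. Depth ran from 44476039 to 52173143 counts per library, and intervals cover spread between libraries only.

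The members and gene lists were chosen with earlier results of these data known. Genes named are Crebbp and Ep300, leading members of each list, the 15 largest rises and the 15 largest falls. The 8 largest differences from WT in each direction are also named. The rises, falls and differences were taken among called genes averaging a log2 CPM of 3 or more over the 12 libraries. Genes with overlapping KO groups or provisional names, such as those of the Gm series, were left out of them. Alternatives were median-ratio scaling, no TMM, a filter of 1 CPM in 6 libraries, no filter, protein-coding genes alone, the KO libraries alone, a replicate block, DESeq2 1.42.0 and leaving libraries out.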

Additional observations from a re-analysis of the deposited data

Results flagged for a closer look

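For 16 genes the effect of doxycycline differed between KO and WT cells by the interaction term of the edgeR fit. These are the 8 largest called differences in each direction among genes chosen by level and by separation. Their log2 CPM averaged 3 or more over the 12 libraries, and their KO groups did not overlap. Genes with overlapping KO groups or provisional names, such as those of the Gm series, were left out and can hold larger differences. They are given as the log2 fold change in KO minus that in WT. Upward they were Pmepa1 at 1.751, Smad9 at 1.587, Hp at 1.527, Has2 at 1.232, Sphk1 at 1.149, Tubb3 at 1.05, Lxn at 1.03 and Kctd11 at 0.994. Downward they were Trib3 at -2.643, Cxcl5 at -1.794, Saa3 at -1.713, Cth at -1.536, Ereg at -1.337, Ptx3 at -1.333, Lif at -1.221 and Lcn2 at -1.185. Hp, the haptoglobin gene, and Has2, a hyaluronan synthase gene, did not pass in KO cells by themselves. Has2, Hp and Tubb3 met the level rule through WT cells, with 0.150, 0.425 and 0.619 CPM in KO DMSO against 59.7, 98.7 and 25.5 CPM in WT DMSO, so their KO values rest on few counts. Cxcl5 and Saa3 were also under this level on average over the KO libraries. Of the 440 named genes 276 had a called difference and 53 had opposite directions in KO and WT.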

How the results depend on the processing

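Leaving out 1 KO library gave 1130 to 1470 raised and 766 to 1067 lowered genes, against 1462 and 1278. Without KO DMSO replicate 1 the calls were 63.9% upward, against 53.4%. With KO DMSO replicates 1 and 2 both left out, chosen after seeing the data, 733 rose and 356 fell, and the lone KO DMSO library was assumed to vary like the other groups. Without TMM scaling 1271 rose and 1514 fell (45.6% upward), and among protein-coding genes alone 1621 rose and 1109 fell. DESeq2 called 1343 raised and 946 lowered genes. The replicate block gave 1436 and 1243 genes with 12 libraries and 1573 and 1350 with the 6 KO libraries. Same-numbered KO libraries correlated at 0.00607, 0.00213 and -0.03 in their deviations from the group means over all genes. Such values cannot show whether same-numbered libraries shared a day or culture, and the labels do not say. Of 266 called named genes 195 were called in every alternative and 0 reversed in any. Many of these genes were named for a small p or a large change in the main fit, which favours their passing. Changes of a few percent may be near the limit set by 3 libraries a group, which was not estimated.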
